A study of Rattus norvegicus with 18 samples.

Results

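The genes described here are the rat chemokines and chemokine receptors, taken as those whose gene symbol names a CC, CXC, XC or CX3C ligand or receptor or an atypical chemokine receptor, on probe sets that the array annotation gives exactly 1 gene symbol. This rule found 51 of 14506 genes, 33 ligands, 16 receptors and 2 atypical receptors, each with 1 probe set. Ccr8, Ackr1, Ackr4 and Ccl1 are not analysed here. RNA came from medullary thyroid carcinomas, which arise from the C cells that secrete calcitonin, of untreated rats kept under specified pathogen-free conditions, strain Sprague–Dawley white eye/Wistar–Kyoto, and was measured on 18 arrays. The groups were 6 tumours of homozygous p27Kip1 (Cdkn1b) mutants aged 9 months, 6 from heterozygotes aged 18 months and 6 from heterozygotes aged 9 months, so every animal carried the mutation. Normal thyroid is not analysed here. By the codes in the labels, each array came from a different animal.

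Chemokines are small secreted proteins that guide the movement of leukocytes and other cells. They are read by G protein-coupled receptors on the surface of the responding cell. Families are named for the spacing of their first cysteines (CXC, CC, XC and CX3C), and atypical receptors bind chemokines and take them up without coupling to G proteins. Inflammatory members are switched on during infection or injury, whereas homeostatic members are made constantly and organise lymphoid tissue and vessels. In solid tumours they come from tumour cells, vessels, fibroblasts and the leukocytes themselves.

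Expression is given as log2 values, in which a difference of 1 is a doubling, and levels are compared for each gene between tumours, never between genes. Of the 51 genes 40 (78.4%) reached the level set for testing, a mean of 6.32 over all arrays, as did 78.4% of all genes. Differences are those of limma, fitted to all 18 arrays and 11370 genes, and a gene rose or fell where its adjusted p was under 0.05. Calca, the calcitonin gene, measured 13.76 to 14.02 in homozygous tumours, 14.01 to 14.12 in heterozygous tumours at 18 months and 13.75 to 13.92 in those at 9 months. The mutated gene Cdkn1b measured 10.96 to 11.25 in homozygous tumours, 10.65 to 11.10 in heterozygous ones at 18 months and 10.67 to 10.90 in those at 9 months, which checks no genotype because it is unknown which part of the gene these probes cover. Homozygous replicate 3 and replicates 1, 2, 3 and 6 of the 18-month group stood apart on the first principal component of all tested genes (23.95 for the homozygous tumour and 35.84 to 69.87 for the 4 older ones, against -28.56 to 4.21 in the remaining tumours). Replicates 4 and 5 of the 18-month group lay at -11.72 and 4.21. The arrays' number limits the precision of every comparison.

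The age comparison asked how heterozygous tumours at 18 months differ from those at 9 months. At 18 months 10 of the 40 tested genes fell and 0 rose. They were all 5 measured CXC ligands outside the neutrophil-attracting and interferon-induced groups (Cxcl12, Cxcl13, Cxcl14, Cxcl16 and Cxcl17), 4 receptors (Cxcr4, Cxcr6, Ccr2 and Xcr1) and the atypical receptor Ackr3. The 10 that fell are 25.0% of the tested genes of the family, close to the 22.4% of all 11370 tested genes that fell (44.1% changed in either direction). Rises were called for 21.6% of all tested genes, and for 0 of these 40, with 12 of the 40 under an unadjusted p of 0.05 in either direction against 51.4% of all genes. With array weights, which count an array less the more it departs from its group, 3 rose, Ccl5, Ccl19 and Cx3cr1. The lowest weights were those of replicates 4 (0.22), 1 (0.35) and 5 (0.38) of the 18-month group and homozygous replicate 3 (0.34). The median log2 difference was -0.07 over the 40 genes and -0.0045 over all tested genes. In bulk tissue, fewer cells of a type and less RNA per cell cannot be told apart.

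Cxcl13, the ligand that draws B cells into lymphoid follicles through Cxcr5, fell most. Its lowest, median and highest log2 values were 6.82, 7.72 and 9.28 at 18 months, against 10.09, 10.43 and 10.92 at 9 months. Every older tumour lay below every younger one. The log2 difference was -2.49 (SE 0.40), a 5.6-fold lower level (limma adjusted p = 0.000442). It stayed between -2.78 and -2.25 in every alternative analysis and passed the threshold in all 27. Replicates 4 and 5 of the 18-month group, at 9.24 and 9.28, were its highest, and replicates 1, 2 and 3 lay between 6.82 and 7.25. Of the 10 genes that fell, Cxcl13, Cxcr6 and Xcr1 showed no overlap between the groups, 3 of 40 tested genes (7.5%) against 9.00% of all tested genes with no overlap in that direction, and 0 of 40 lay wholly above, against 9.07%.

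Cxcl12, a homeostatic ligand made by stromal and endothelial cells, is read by Cxcr4 and taken up by Ackr3. Its lowest, median and highest values were 7.42, 8.18 and 8.93 at 18 months, against 8.88, 9.17 and 9.26 at 9 months. Of the older tumours 5 lay below every younger one, and replicate 4 did not. The log2 difference was -0.96 (SE 0.20, limma adjusted p = 0.00171). Ackr3 ran from 8.58 over a median of 9.82 to 10.89 at 18 months, against 10.57, 11.14 and 12.22 at 9 months. It differed by -1.38 (SE 0.37, limma adjusted p = 0.00655), and replicates 4 and 5 of the older group overlapped the younger tumours. Cxcr4, which holds leukocytes and progenitors near sources of Cxcl12, ran from 7.52 over 7.63 to 8.0 at 18 months, against 7.73, 7.99 and 8.22 at 9 months. Its fall was smaller, -0.30 (SE 0.10, limma adjusted p = 0.0231), and replicate 6 was the older tumour that overlapped the younger ones.

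The promoters of Cxcl13, which fell most, and of Cxcl12, whose receptor Cxcr4 and scavenger Ackr3 also fell, are shown from 250 bases before to 50 after the gene start in RefSeq (build GRCr8), with matches to a kB-type motif (GGG, any 5 bases, then CC, searched on both strands, a loose form of the sequence bound by NF-kB factors) in capitals. A match describes letters and is not a binding site. Cxcl13 lies at chr14:13917871-13918170 on the minus strand, and Cxcl12 at chr4:152060531-152060830 on the plus strand.
Cxcl13: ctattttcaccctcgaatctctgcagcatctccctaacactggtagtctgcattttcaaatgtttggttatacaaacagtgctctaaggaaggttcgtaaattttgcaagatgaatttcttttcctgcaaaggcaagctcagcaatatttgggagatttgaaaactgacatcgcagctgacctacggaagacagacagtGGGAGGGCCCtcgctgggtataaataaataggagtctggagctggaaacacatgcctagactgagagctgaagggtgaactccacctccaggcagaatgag
Cxcl12: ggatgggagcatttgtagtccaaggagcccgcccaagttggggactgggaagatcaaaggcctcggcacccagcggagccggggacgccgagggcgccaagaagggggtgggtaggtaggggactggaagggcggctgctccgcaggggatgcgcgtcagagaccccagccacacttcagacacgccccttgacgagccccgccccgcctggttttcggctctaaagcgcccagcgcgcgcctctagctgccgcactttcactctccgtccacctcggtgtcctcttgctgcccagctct
The Cxcl13 promoter held 1 stretch that matches and the Cxcl12 promoter held 0. Promoters were found for 40 of the 51 genes, among them all 10 that fell, of which 2 held a match (Cxcl13 and Cxcr6). Of all 27457 promoters 48.5% held a match, as did 21 of the 40 (52.5%), so the pattern is common. A pattern of interferon response elements (GAAA, any 2 bases, then GAAA, both strands) was present in 3.77% of all promoters, in 2 of the 40 and in 0 of the 10 that fell.

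The other CXC ligands of this group fell less than Cxcl13. Cxcl14, made constantly by many epithelia and fibroblasts, had lowest, median and highest values of 7.49, 8.11 and 9.07 at 18 months, against 9.04, 9.27 and 9.43 at 9 months. It differed by -0.99 (SE 0.23, limma adjusted p = 0.00278), with 5 of 6 older tumours below every younger one. Cxcl17, a ligand of mucosal tissues, ran from 6.83 over 7.96 to 8.49 at 18 months, against 8.46, 8.78 and 8.95 at 9 months, a difference of -0.90 (SE 0.21, limma adjusted p = 0.00326). Again 5 of 6 older tumours lay below the younger range, and replicate 5 lay just inside it. Cxcl16, a membrane-bound ligand that also takes up oxidised lipoproteins, ran from 10.24 over 10.70 to 10.87 at 18 months, against 10.76, 10.99 and 11.12 at 9 months. Its fall was small, -0.32 (SE 0.11, limma adjusted p = 0.0316), and replicates 4 and 5 overlapped the younger tumours.

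Cxcr6, the receptor of Cxcl16 on T cells and natural killer T cells, had values of 6.61, 7.01 and 7.19 (lowest, median and highest) at 18 months, against 7.42, 7.61 and 7.98 at 9 months. All 6 older tumours lay below all younger ones, with a difference of -0.68 (SE 0.12, limma adjusted p = 0.00074). Xcr1, a receptor of dendritic cells that take up and cross-present antigen, ran from 6.38 over 6.58 to 6.94 at 18 months, against 6.98, 7.04 and 7.52 at 9 months. Its difference was -0.50 (SE 0.14, limma adjusted p = 0.00897), again without overlap. Ccr2, the receptor through which Ccl2 recruits monocytes, ran from 6.65 over 7.43 to 8.26 at 18 months, against 7.86, 8.21 and 8.64 at 9 months. Replicate 5 was the older tumour within the younger range, and the difference was -0.82 (SE 0.29, limma adjusted p = 0.0326). Single arrays decided 3 of the 10 calls. Ccr2 missed the threshold without replicate 1, 3 or 6 of the 9-month or replicate 1, 2 or 6 of the 18-month heterozygous group (limma adjusted p up to 0.0834). Cxcl16 missed it without replicate 1, 5 or 6 of the 9-month or replicate 1 or 2 of the 18-month group (up to 0.081), and Cxcr4 without replicate 5 or 6 of the 9-month or replicate 2 or 3 of the 18-month group (up to 0.0594). The other 7 calls held without each array in turn.

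**Figure D1:**
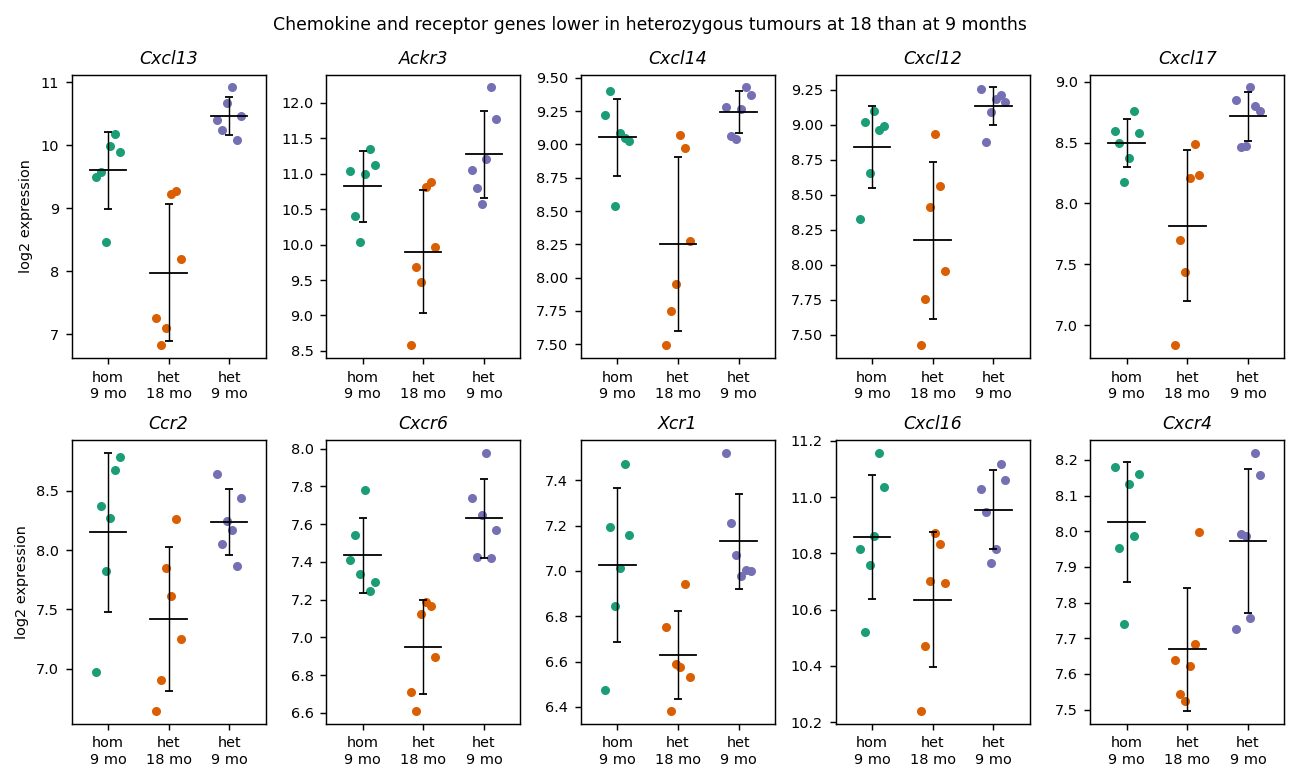
Log2 expression (vertical axis) of the 10 genes that fell, with a panel per gene and a point per tumour, for homozygous mutants at 9 months (hom 9 mo, left), heterozygous mutants at 18 months (het 18 mo, middle) and at 9 months (het 9 mo, right). Black lines are means and bars the SD of 6 tumours, and Cxcl13, Cxcr6 and Xcr1 are the panels without overlap between the ages of heterozygous mutants.

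Marker genes of vessels and thyroid follicles fell at the same age. The counts below stand beside the 22.4% of all tested genes that fell and the 21.6% that rose. Of 13 tested endothelial marker genes 12 fell and 0 rose at 18 months, of 9 follicular genes 8 fell and 0 rose, and of 10 fibroblast genes 5 fell and 1 rose. The mean log2 level of the endothelial list ran from 7.90 to 9.66 at 18 months, against 9.66 to 9.88 at 9 months. Replicates 4 and 5, which had the highest Cxcl13, Cxcl12, Cxcl14, Cxcl16 and Ackr3 of the older group, were also its highest for endothelial (9.66 and 9.44) and follicular genes (11.24 and 10.96, against 7.49 to 9.59 in the others). Replicate 1 had the lowest endothelial mean (7.90) and follicular mean (7.49), and the lowest Cxcl12, Cxcl14, Cxcl16, Cxcl17, Ackr3 and Ccr2 of its group. Of 5 dendritic cell genes 4 fell, with list means of 7.41 to 7.79 at 18 months against 7.85 to 8.04 at 9 months. Of 7 pan-leukocyte genes 2 fell, with list means of 8.55 to 9.65 against 9.21 to 9.54. Of 5 B and plasma cell genes 1 fell. Of 9 T and natural killer cell genes 0 passed in either direction, and of 12 macrophage genes 3 rose and 1 fell. Of 12 C cell genes 9 rose and 0 fell, and all 8 adipocyte genes fell. Of 6 mast cell genes 3 fell and 0 rose, of 4 parathyroid genes 2 fell and 1 rose (median -2.20), and of 9 skeletal muscle genes 1 fell and 0 rose (median -1.70). Of 5 lymphatic endothelial genes 1 rose and 1 fell, and of 4 neutrophil genes 0 passed. The part of these cells in the results was not tested.

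**Figure D2:**
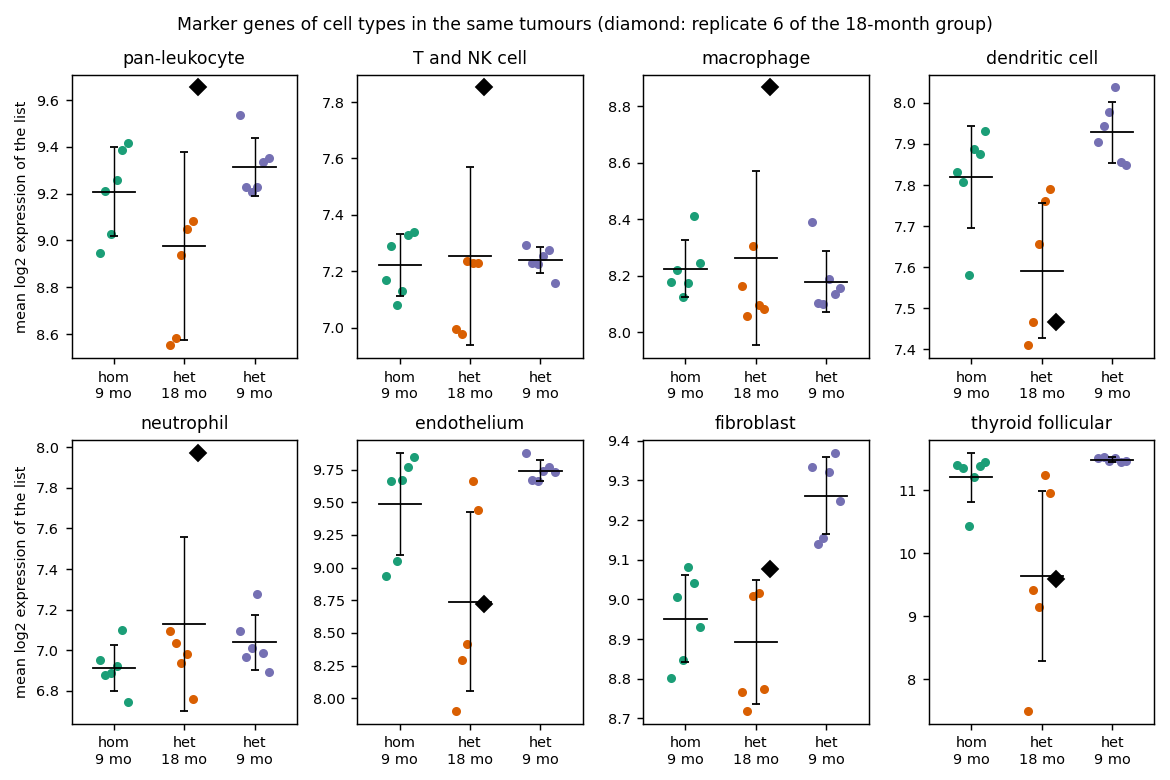
Mean log2 level of the tested marker genes of 8 cell types (vertical axis), a point per tumour, with homozygous mutants at 9 months on the left, heterozygous mutants at 18 months in the middle and at 9 months on the right. Lines and bars are the mean and SD of 6 tumours, and the diamond is replicate 6 of the 18-month group, highest for the pan-leukocyte (9.65), T and NK cell (7.85), macrophage (8.87) and neutrophil (7.97) lists.

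The 30 tested genes that did not pass differed by between -0.64 and 0.77 with age. Among the CC ligands 0 of 16 passed. The smallest unadjusted p belonged to Ccl19, which with Ccl21 guides dendritic cells and T cells through Ccr7. It measured 7.29, 7.81 and 9.31 (lowest, median and highest) at 18 months, against 7.22, 7.52 and 7.74 at 9 months, a difference of 0.51 (SE 0.23, limma adjusted p = 0.0879). Replicate 3 held the highest value, and without it the difference was 0.25. Without replicate 1 of the 18-month group the gene passed the threshold (0.65, limma adjusted p = 0.0296). Ccl21 ran the other way, with 8.49, 10.71 and 11.19 at 18 months, against 10.80, 10.96 and 11.15 at 9 months (-0.64, SE 0.32, limma adjusted p = 0.12). Its low values came from replicates 1 (8.49) and 2 (9.81), while the other 4 lay between 10.61 and 11.19, and without replicate 1 the difference was -0.27. Ccr7 itself differed by 0.12 (SE 0.13), and by -0.0029 without replicate 1.

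Cx3cr1, the fractalkine receptor of monocytes and macrophages, had values of 8.06, 8.40 and 9.07 at 18 months, against 7.71, 7.94 and 8.45 at 9 months (0.42, SE 0.20, limma adjusted p = 0.0885). It passed without replicate 1 of the 9-month (limma adjusted p = 0.0492) or replicate 4 of the 18-month heterozygous group (0.049). Its ligand Cx3cl1 differed by 0.10 (SE 0.17). Ccl5, an attractant of T cells and monocytes, ran from 8.54 over 9.06 to 11.65 at 18 months, against 8.27, 8.74 and 8.86 at 9 months (0.77, SE 0.38, limma adjusted p = 0.108). It passed without replicate 4 of the 18-month group (limma adjusted p = 0.0448), and its difference was 0.33 without replicate 6. The T cell-attracting Ccl22 differed by -0.21 (SE 0.10, limma adjusted p = 0.101). Ccl24, an attractant of eosinophils named here after its values were seen, differed by -0.30 (SE 0.15, limma adjusted p = 0.122) and passed without replicate 6 of the 18-month group (-0.39, 0.0408), while without replicate 1 of that group it differed by -0.17.

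The interferon-induced ligands Cxcl9, Cxcl10 and Cxcl11 attract activated T cells through Cxcr3. None of the 3 passed, with differences of -0.07 (SE 0.23), -0.40 (SE 0.21) and -0.31 (SE 0.15) and limma adjusted p-values from 0.103 to 0.831. Cxcl11 measured 6.06, 6.52 and 6.84 at 18 months, against 6.64, 6.73 and 7.18 at 9 months. Cxcr3 differed by 0.06 (SE 0.09). Of the ligands that attract neutrophils, Cxcl1 was the only one tested, with a difference of 0.11 (SE 0.12, limma adjusted p = 0.484).

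Set side by side, ligand and receptor both fell for Cxcl12 and Cxcr4 and for Cxcl16 and Cxcr6. In 3 further pairs 1 partner passed. Cxcl13 fell by 2.49 on the log2 scale and its receptor Cxcr5 differed by 0.18 (SE 0.13), or 0.052 without replicate 1 of the 18-month group. Ccr2 fell by 0.82 on this scale and its ligand Ccl2 differed by 0.20 (SE 0.31). Xcr1 fell by 0.50 on this scale and its ligand Xcl1 differed by -0.18 (SE 0.11). No partner passed for Ccl19, Ccl21 and Ccr7, for Cx3cl1 and Cx3cr1, or for Cxcl9, Cxcl10, Cxcl11 and Cxcr3. Neither Ccl27, Ccl28 nor their receptor Ccr10 passed, with differences of -0.08, 0.01 and 0.05 and SEs from 0.06 to 0.08. Whether a ligand and its receptor differ in response was not tested. The remaining tested members (Ccl4, Ccl6, Ccl9, Ccl11, Ccl17, Ccl20, Ccl26, Cxcr1, Ccr4 and Ackr2) differed by between -0.18 and 0.11.

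**Figure D3:**
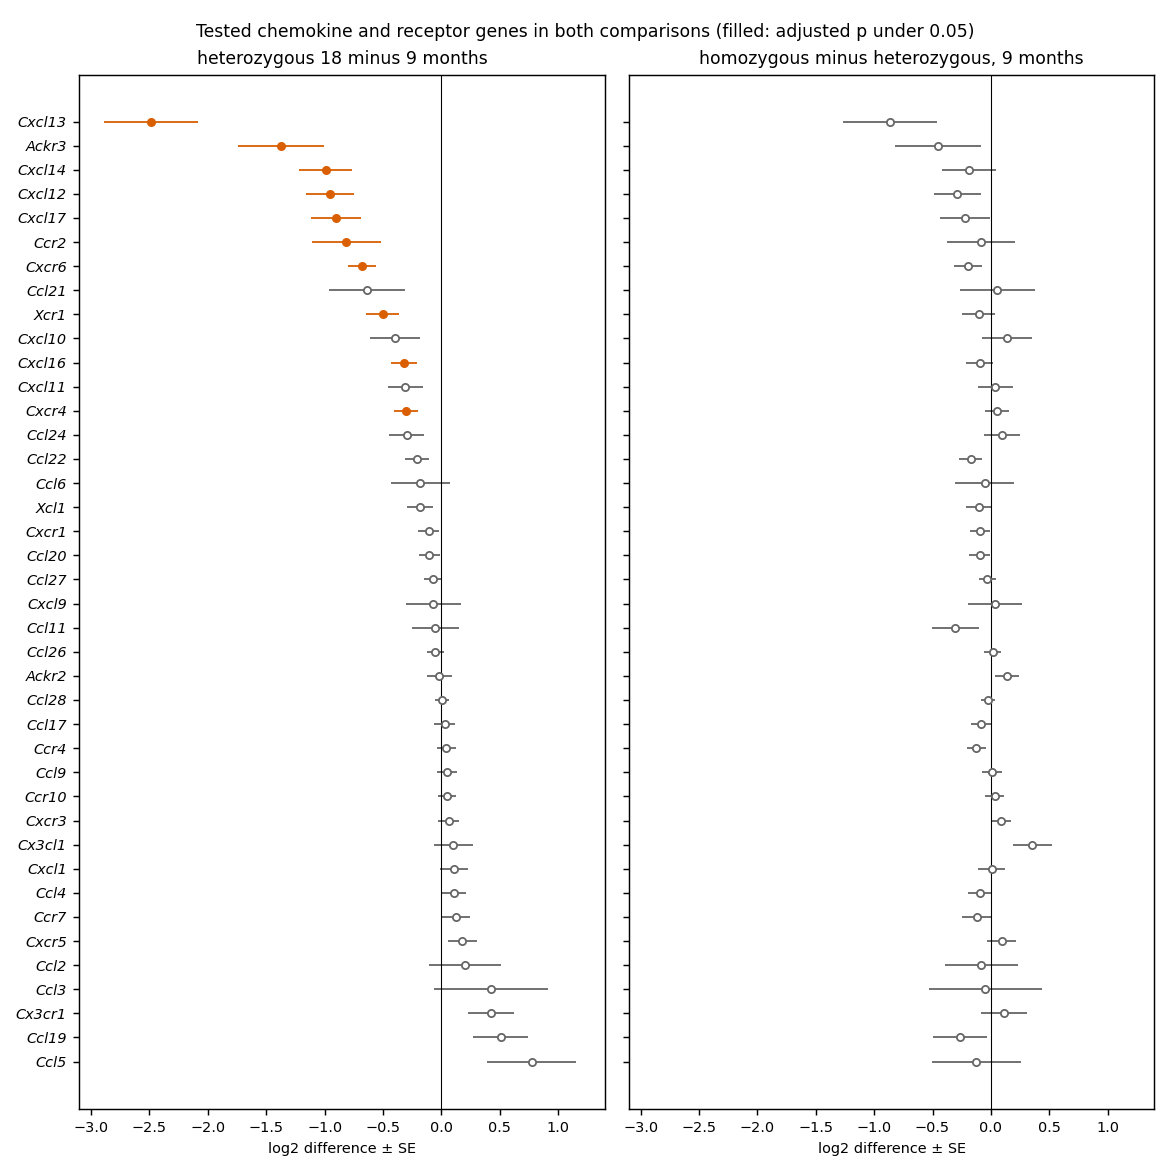
Log2 difference with its SE (horizontal axis) of the 40 tested genes, one per line, for heterozygous tumours at 18 minus 9 months (left) and homozygous minus heterozygous tumours at 9 months (right), both ordered by the age difference. Filled points have an adjusted p under 0.05: 10 on the left, all below 0, and 0 on the right.

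Replicate 6 of the 18-month group stood apart from the other tumours for some members. In it 9 of the 51 genes (17.6%) were at least 1 log2 unit above the median of the other 5 tumours of that age, as were 1.81% of all 14506 genes. Counted in the same way, against the other tumours of its own group, each remaining array had 0 to 5 such genes. Ccl3, which recruits monocytes and T cells, measured 10.63 in this tumour and 6.72 to 6.96 in the other 5, a level 13.8-fold above their median. Cxcl6 and Cxcl2, which recruit neutrophils through Cxcr2, measured 8.51 and 8.44, against 5.31 to 5.49 and 5.38 to 5.61 in the others. Ccl5 measured 11.65 (8.54 to 9.82 in the others) and the monocyte attractant Ccl2 measured 11.03 (8.51 to 8.79 in the others). The receptors Ccr1 and Cxcr2, of monocytes and neutrophils, measured 7.22 (5.39 to 5.72 in the others) and 7.14 (5.22 to 5.83 in the others). Ccl6 and the eosinophil attractant Ccl11 measured 9.53 (7.66 to 8.45 in the others) and 8.20 (6.77 to 7.42 in the others). These genes were chosen by their values in this tumour, which are described without a test. Other inducible members lay within the range of the other older tumours, Cxcl10 at 7.91 (7.50 to 8.33 in the others), Cxcl9 at 6.84 (5.74 to 7.73 in the others) and Ccl20 at 6.71 (6.55 to 6.81 in the others).

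The promoters of Cxcl2 and Cxcl6 are shown because both ligand genes were below the level for testing in every tumour but this. The receptors Cxcr2 and Ccr1 were so too, and their promoters, not shown, held 1 and 0 matches. Capitals mark matches to the same kB-type motif, and the sequences are from RefSeq (GRCr8). Cxcl2 lies at chr14:17467206-17467505 and Cxcl6 at chr14:17596368-17596667, both on the minus strand.
Cxcl2: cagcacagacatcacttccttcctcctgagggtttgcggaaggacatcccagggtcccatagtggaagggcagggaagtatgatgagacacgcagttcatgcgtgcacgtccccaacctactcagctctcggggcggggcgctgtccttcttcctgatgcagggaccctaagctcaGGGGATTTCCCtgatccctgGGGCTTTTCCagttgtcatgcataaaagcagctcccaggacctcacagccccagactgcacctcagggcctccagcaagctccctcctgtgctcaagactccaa
Cxcl6: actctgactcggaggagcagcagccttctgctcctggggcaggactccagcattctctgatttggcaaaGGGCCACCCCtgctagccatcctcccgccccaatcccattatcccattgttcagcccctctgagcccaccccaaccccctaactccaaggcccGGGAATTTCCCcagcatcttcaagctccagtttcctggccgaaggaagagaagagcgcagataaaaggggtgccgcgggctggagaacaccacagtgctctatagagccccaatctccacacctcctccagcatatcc
Each held 2 separate stretches that match, where overlapping matches are counted as 1 stretch. The promoters of Ccl20 and Cxcl10, which were not raised in this tumour, also held 2. Of all promoters 48.5% held at least 1 match, and the share with 2 stretches was not counted. Cxcl1 and Cxcl3, of the same cluster of CXC ligand genes, measured 7.79 and 5.51 in replicate 6, against 6.88 to 7.29 and 4.86 to 5.16 in the other 5 older tumours. Probe sequences were not used here, so signal shared between similar family members was not tested.

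Several marker lists of leukocytes were also high in this tumour, whereas the dendritic and mast cell lists were not. Their means, over 5 tested of 9 and 6 tested of 8 listed genes, were 7.47 and 6.73. In the other 5 older tumours they were 7.41 to 7.79 and 6.72 to 7.29. Lamp3 of the dendritic list was nevertheless high in this tumour, at 6.915 against 4.355 to 4.729 in the other 5. The neutrophil list mean, over 4 tested of 10 listed genes, was 7.97, against 6.76 to 7.10 in the other 5 older tumours. Of the 10 listed, Lcn2, Csf3r, S100a9, Mmp8 and Mmp9 were at least 1 log2 unit above the median of the other 5. The listed S100a8, Mpo, Elane, Ngp and Camp were not. Lcn2 measured 11.32 against 7.78 to 8.98 and Csf3r 7.68 against 6.27 to 6.43. S100a9, a calcium-binding protein abundant in neutrophils, measured 8.02 against 5.76 to 6.16, while Ngp of this list was highest in replicate 1 (6.42). The T and natural killer cell mean, over 9 tested of 16 listed genes, was 7.85 against 6.98 to 7.23. Of those listed, only Prf1, Gzma and Gzmb were at least 1 log2 unit above the median of the other 5. Prf1 measured 9.18 against 6.30 to 6.92, the protease gene Gzma 9.75 against 5.46 to 6.16 and Gzmb 10.11 against 8.03 to 8.31. The macrophage mean was 8.87 against 8.06 to 8.31. The genes named here from these lists were chosen after their values were seen, and the part of these cells was not tested. Of the 10 genes that fell, Cxcr4 was the one highest in this tumour (8.0), which measured 8.19 for Cxcl13, 7.96 for Cxcl12 and 6.90 for Cxcr6, within the range of the others. Without this tumour the age differences of Ccl2 and Ccl3 were -0.19 and -0.21, against 0.20 and 0.42 with it, and neither passed in either case.

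**Figure D4:**
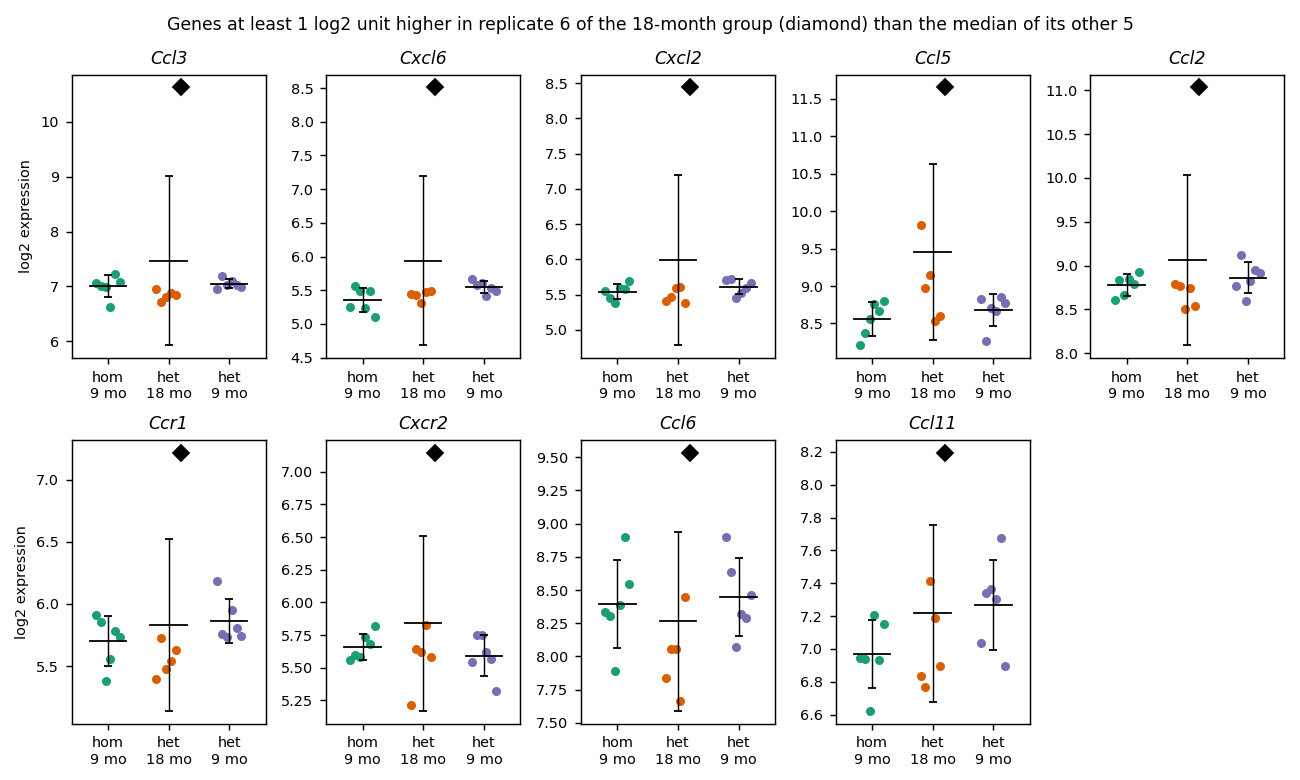
Log2 expression (vertical axis) of the 9 genes at least 1 unit above the median of the other older tumours in replicate 6 of the 18-month group, which is drawn as a diamond. Groups run from homozygous mutants at 9 months (left) over heterozygous mutants at 18 months to those at 9 months (right), lines and bars are the mean and SD of 6 tumours, and the diamond is the highest of the 18 points in each panel.

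The genotype comparison set homozygous against heterozygous tumours, both at 9 months. Of the 40 tested genes limma called 0, as it called 0 of all 11370 (0.00%). At an unadjusted p under 0.05 it counted 2 of the 40 (5.00%), against 8.75% of all genes. In 0 of the 40 did the genotypes show no overlap, against 0.915% of all genes lying wholly lower and 0.651% wholly higher in homozygous tumours. The smallest p belonged to Cxcl13, whose lowest, median and highest values were 8.47, 9.74 and 10.18 in homozygous and 10.09, 10.43 and 10.92 in heterozygous tumours. Of the homozygous tumours 5 lay below every heterozygous one, a difference of -0.86 (SE 0.40, limma adjusted p = 0.561). Cx3cl1, a membrane-bound ligand that holds monocytes to endothelium and neurons, measured 9.99, 10.53 and 10.69 in homozygous and 10.03, 10.13 and 10.24 in heterozygous tumours. Here 5 of 6 homozygous tumours lay above every heterozygous one and replicate 3 below all of them, a difference of 0.36 (SE 0.17, limma adjusted p = 0.567). Ccl22 differed by -0.17 (SE 0.10, limma adjusted p = 0.615) and Cxcr6 by -0.20 (SE 0.12, limma adjusted p = 0.644). The median over the 40 genes was -0.08, against 0.0022 over all tested genes.

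A further comparison set homozygous tumours at 9 months against heterozygous ones at 18 months, where genotype and age differ together. Of the 40 genes 7 were higher in homozygous tumours (17.5%, against 16.2% of all tested genes) and 1 was lower (2.5%, against 13.6%), and 29.8% of all genes passed in either direction. At an unadjusted p under 0.05 there were 15 of the 40, against 41.8% of all genes. The 7 were Cxcl13 (1.62, SE 0.40), Cxcl14 (0.80, SE 0.23), Cxcl17 (0.68, SE 0.21), Cxcl12 (0.67, SE 0.20), Cxcr6 (0.48, SE 0.12), Xcr1 (0.40, SE 0.14) and Cxcr4 (0.36, SE 0.10), with limma adjusted p-values from 0.0111 to 0.0429. For Cxcr6 all 6 homozygous tumours lay above all older heterozygous ones, 1 of 40 genes without overlap (2.5%, against 1.26% of all tested genes), and 0 of 40 lay wholly lower, against 0.994%. The gene that was lower was Ccl19, with 7.04, 7.23 and 7.44 in homozygous tumours against 7.29, 7.81 and 9.31 in the older heterozygous ones (-0.77, SE 0.23, limma adjusted p = 0.0221). Its difference went to -0.51 without replicate 3 of the 18-month group and still passed. All 7 genes that were higher here are among the 10 of the age comparison, which shares the 18-month tumours. The fit pools the spread of all groups, and with only the 2 groups compared 1 gene was higher and 0 lower. Without replicate 5 of the 18-month group 12 were higher and without replicate 2 of it 4 were, while 2 were lower without replicate 4, 5 or 6 of it. Xcr1 passed in 5 of 18 analyses that left out an array, those without homozygous replicate 1 or 3, 9-month heterozygous replicate 1 or 4, or 18-month replicate 5. It also missed the threshold with no filter (limma adjusted p = 0.052), with median centring (0.0617) and with further quantile normalization (0.0663). Cxcl12 missed the threshold without homozygous replicate 4 or 18-month replicate 1 or 2 (limma adjusted p up to 0.0583), and Cxcl17 without homozygous replicate 5 or 6 or 18-month replicate 2 or 3 (up to 0.0625). Of the 13 endothelial genes 8 and of the 9 follicular genes 7 were also higher in homozygous tumours, and 0 were lower. The endothelial mean ran from 8.94 to 9.84 in homozygous tumours and from 7.90 to 9.66 in older heterozygous ones, and its part was not tested.

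Members varied more between tumours at 18 than at 9 months, as did genes at large. The SD of the 6 older tumours exceeded that of the 6 younger heterozygous ones for 37 of the 51 genes (72.5%), and for 76.3% of all genes. The median SD was 0.27 at 18 months and 0.14 at 9 months over the 51 genes, against 0.17 and 0.11 over all genes. Between the genotypes at 9 months the SD was larger in homozygous tumours for 35 of 51 genes (68.6%), and for 75.6% of all genes.

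**Figure D5:**
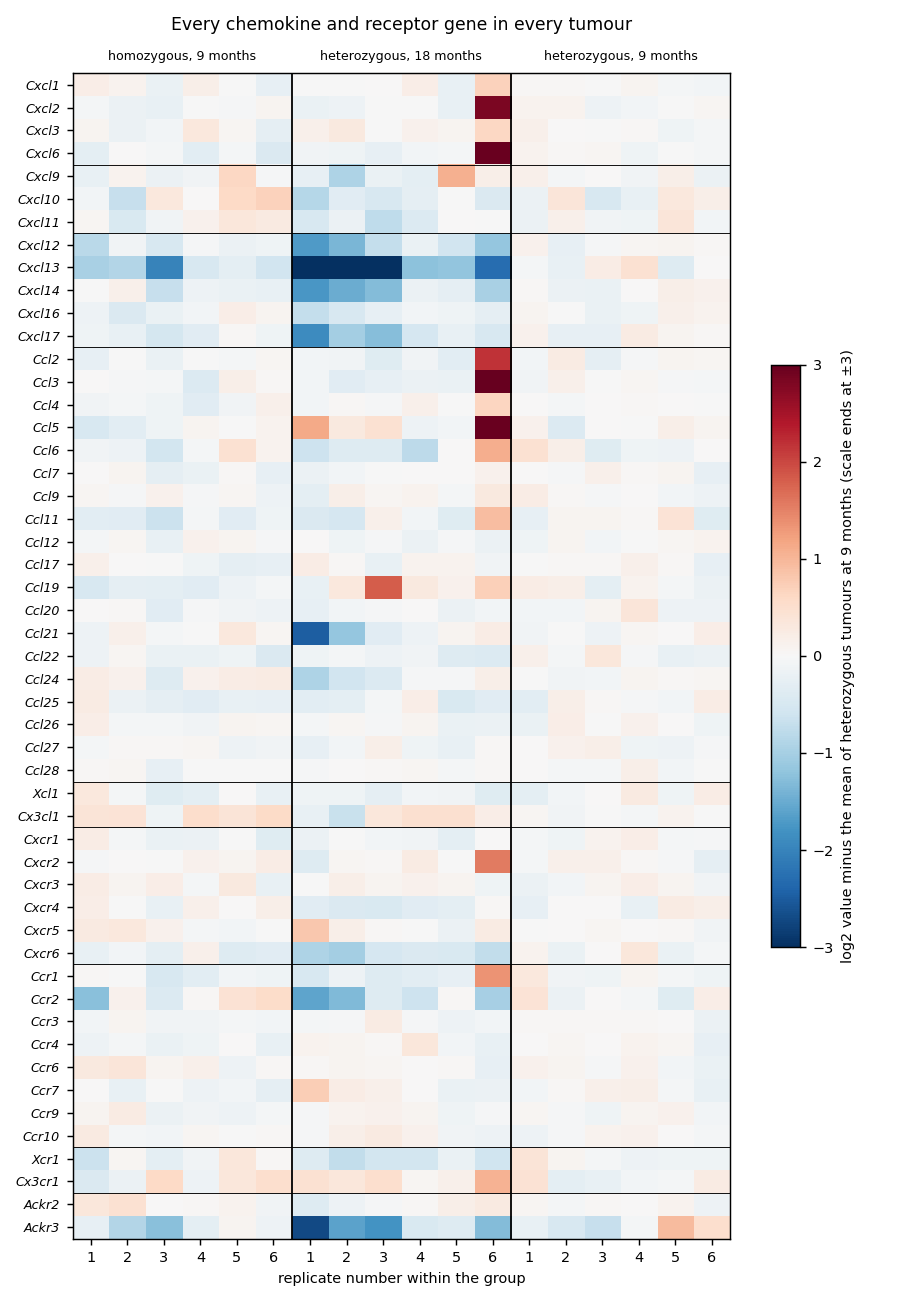
Log2 value of each of the 51 genes (rows, by class from the neutrophil-attracting CXC ligands down to the atypical receptors) in each tumour (columns, by group and replicate number), minus the gene's mean in heterozygous tumours at 9 months. Blue is lower and red higher, the colour scale ends at 3 units either way, and the rows of Cxcl13 and Ackr3 and the column of replicate 6 of the 18-month group stand out.

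The 11 genes under the level for testing were the ligands Cxcl2, Cxcl3, Cxcl6, Ccl7, Ccl12 and Ccl25 and the receptors Cxcr2, Ccr1, Ccr3, Ccr6 and Ccr9. Outside replicate 6 of the 18-month group the highest value among Cxcl2, Cxcl6, Cxcr2 and Ccr1 was 6.18. Ccl7, an attractant of monocytes, ran from 6.02 to 6.44 over all arrays, the gut-homing receptor Ccr9 from 5.14 to 5.58 and its ligand Ccl25 from 5.04 to 5.74. Ccr6, the receptor of Ccl20, ran from 5.29 to 5.91 and the eosinophil receptor Ccr3 from 4.20 to 4.62. With every gene tested, limma again called 10 lower and 0 higher among all 51 at 18 months.

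Other genes of chemoattraction and signalling are set beside the 22.4% of all tested genes that fell and the 21.6% that rose at 18 months. Of 14 tested chemoattractant genes outside the naming rule 4 fell and 0 rose at 18 months (median -0.13). They were Rarres2, the chemerin precursor (-0.54, SE 0.13), Dpp4, a peptidase that trims and inactivates several chemokines (-1.45, SE 0.37), S1pr1, the receptor by which lymphocytes leave lymph nodes (-0.69, SE 0.22), and Cmtm3, a membrane protein of the chemokine-like factor family (-0.50, SE 0.18), with limma adjusted p-values from 0.00395 to 0.0362. Of 43 genes of receptor signalling 7 rose and 10 fell (median -0.06). Among them Gnai3, an inhibitory G protein subunit, differed by -0.52 (SE 0.09) and the kinase Jak2 by -0.68 (SE 0.13). The receptor kinases Grk3 and Grk5, which phosphorylate activated receptors, differed by 0.94 (SE 0.17) and -1.91 (SE 0.38). For these 4 genes the adjusted p in limma lay between 0.00074 and 0.00121.

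Of 19 tested inducers and regulators of chemokine transcription 2 rose and 5 fell at 18 months (median -0.09). The sensors Tlr4 and Tlr3, of bacterial lipopolysaccharide and double-stranded RNA, differed by -0.52 (SE 0.11) and -0.90 (SE 0.22). The myeloid factor Irf8 differed by -1.36 (SE 0.31) and the NF-kB subunit gene Nfkb2 by -0.96 (SE 0.24), with limma adjusted p-values of the 4 genes from 0.00135 to 0.00491. The interleukin gene Il1b measured 8.21 in the older tumour of replicate 6, and 6.82 to 7.02 in the remaining 5 of that age. Between the genotypes at 9 months 0 genes of these 3 lists passed by limma, which called 0 genes at large.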

How the data were processed

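Per the labels' protocols, RNA of 18 tumours was extracted on RNeasy columns with a DNase step, then amplified and biotin-labelled with NuGEN reagents. The authors deposited log2 values, for which the submitters' processing notes name RMA and, as software, Affymetrix Expression Console (version 1.3.0.187). RMA normalizes between arrays, so a change shared by most genes would be removed. Array medians lay between 7.55 and 7.65. Arrays give no depth.

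Of 29214 probe sets 15310 had 1 gene symbol in the platform annotation, 323 several and 13581 none. The highest-mean probe set stood for each of 14506 genes, and 11370 with a mean at or above the 30th percentile of all probe sets (6.32) were tested. Samples were grouped by their labels. A model with a mean for each of the 3 groups was fitted with lmFit and eBayes of limma 3.58.1 (R 4.3.3), with Benjamini-Hochberg adjustment over all tested genes, two-sided tests and a threshold of 0.05. The procedure was tested on simulated arrays.

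Named were genes called in any comparison, the 6 (age) and 4 (genotype) uncalled with the smallest p, and up to 4 called genes per further list. Members and lists were chosen with earlier results of these data known. Alternatives were other filters, the replicate block, other fits, weights, normalizations and probe set rules, and each array left out.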

Additional observations from a re-analysis of the deposited data

Results flagged for a closer look

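In a group of 6 tumours, a lowest or highest value was singled out where its gap to the nearest value exceeded 0.625 of the group's range. Of 153 sets of 6 values 19 did so, and chance gives about 1 in 20, or 7.65. Replicate 6 of the 18-month heterozygous group held 9 of them. It was highest for Ccl2 (11.03, next 8.79), Ccl3 (10.63, next 6.96), Ccl4 (7.88, next 7.39), Ccr1 (7.22, next 5.72), Cxcl2 (8.44, next 5.61), Cxcl6 (8.51, next 5.49), Cxcr2 (7.14, next 5.83) and Cxcr4 (8.0, next 7.68), and lowest for Ccr6 (5.29, next 5.55). Replicate 3 of the same group was highest for Ccr3 (4.62, next 4.35).

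Homozygous replicate 3 was lowest of its group for Ccl24 (7.26, next 7.76), Ccl28 (6.16, next 6.40) and Cx3cl1 (9.99, next 10.51). Homozygous replicate 1 was highest for Ccl25 (5.74, next 5.31) and replicate 2 for Ccr3 (4.46, next 4.32). Among heterozygous tumours at 9 months, replicate 4 was highest for Ccl28 (6.60, next 6.43), replicate 2 lowest for Ccl5 (8.27, next 8.67), and replicate 6 lowest for Ccr3 (4.20, next 4.40) and Ccr4 (6.12, next 6.38). Ccr1, Cxcl2, Cxcl6, Cxcr2, Ccr3, Ccr6 and Ccl25 had means under the level for testing.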

How the results depend on the processing

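At 18 against 9 months the 10 falls and 0 rises among the chemokine genes became 11 and 3 with array weights, and leaving out each array gave 7 to 10 falls and 0 to 2 rises. With array weights 3 more genes rose, Ccl5, Ccl19 and Cx3cr1, and Ccl24 fell. A filter at the 50th percentile (7.64) left 8 falls, because Cxcr6 and Xcr1 lay under it and were not tested. Between the genotypes 0 chemokine genes passed under every alternative. Over all genes the genotype counts (0 higher, 0 lower) became 68 and 50 with array weights and 4 and 20 with only the 2 groups compared, and 0 to 1 and 0 to 2 without each array. For homozygous tumours against heterozygous ones at 18 months, 7 higher and 1 lower became 12 and 2 with array weights, 1 and 0 with only the 2 groups compared and 5 and 0 with the stricter filter. That filter left Cxcr6, Xcr1 and Ccl19 untested. Without each array they were 4 to 12 and 1 to 2. Over all genes that comparison gave 1846 higher and 1546 lower, 419 and 289 with only the 2 groups, 2372 lower with array weights, and 1188 to 2411 and 928 to 2291 without each array. Without each array in turn the age difference of Ccl2 ran from -0.19 to 0.31 and that of Ccl3 from -0.21 to 0.57, and in the last comparison Ccl2 ran from -0.39 to 0.11 and Ccl3 from -0.62 to 0.16, the sign turning without replicate 6 of the 18-month group. Cxcr5 ran from -0.16 to 0.041 there, turning without replicate 1 of that group. The cause was not tested.

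Groups share replicate numbers. Same-numbered tumours correlated at -0.13 to 0.33 across the ages (above 0.1 in 4 of 6 pairs), -0.14 to 0.30 between genotypes and -0.29 to 0.35 in the last comparison. Of 6 in each, 3, 1 and 0 correlated best with their own number. The main fit used no pairing, and so few pairs cannot tell whether these tumours share more than a number. With the replicate block, age gave 10 falls and 0 rises, genotype 0 calls, and the last comparison 9 higher and 1 lower, with Ackr3, Ccl24 and Cxcl11 gained and Xcr1 lost (limma adjusted p = 0.0661). Arrays have no depth, and values near background bound what the dim genes can show.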
